A study of Mus musculus with 19 samples.

Results

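The NF-kB factors and their inhibitors were followed here in regulatory T cells (Tregs) after burn trauma. The group was set by name and holds 10 genes of the 24982 rows in the table of gene counts: the subunit genes *NFKB1*, *NFKB2*, *REL*, *RELA* and *RELB*, the inhibitor genes *NFKBIA*, *NFKBID* and *NFKBIE*, the gene of the deubiquitinase A20 (*TNFAIP3*) and *BCL3*. Symbols are written in capitals, as in the table. All 10 were counted in every library, with at least 97 reads, and all 10 passed the filter on low counts together with 11454 other genes. The libraries were bulk RNA-seq of 50000 sorted cells each, with 5582234 to 9433610 counts per library. All mice carried the Foxp3DTR allele, whose FoxP3-GFP reporter was used to gate the Tregs, and were 8 to 16 weeks old and matched for age and sex. CD4+ FoxP3-GFP+ cells of the axillary, brachial and inguinal lymph nodes that drain the injury site were split by CD44, an adhesion receptor that marks antigen-experienced T cells. Burned mice had 20% of their body surface exposed to water at 90 °C for 9 s, and sham mice (called uninjured) went through the same steps with water at room temperature. All mice received anesthesia, buprenorphine and saline, and nodes were taken on day 7. Injured and uninjured mice were separate animals, so a rise or a fall with injury is a difference between these groups. The 19 libraries were 4 of uninjured CD44high Tregs, 5 of uninjured CD44low Tregs, 4 of injured CD44high Tregs and 6 of injured CD44low Tregs. Of the last, 3 carry a single number (1, 2 and 5) and 3 a second one (1_2, 4_2 and 5_2), whose meaning the labels do not give. The labels do not say whether a library was made from 1 mouse or from several, so the p-values measure the spread between libraries, which may in part be technical.

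NF-kB is a family of transcription factors that bind DNA as dimers of related subunits. RelA, c-Rel (from *REL*) and RelB carry activation domains, whereas *NFKB1* and *NFKB2* encode the precursors p105 and p100, which are processed to p50 and p52. In resting cells IkB proteins hold the dimers in the cytoplasm. Antigen receptor, costimulatory and cytokine receptor signals activate the IKK kinases, IkB is degraded and the dimers enter the nucleus, where they switch on target genes that include their own inhibitors. In Tregs, c-Rel is known for its part in *FOXP3* induction, and RelA and c-Rel together for the maintenance of the effector Treg state. *NFKBID* encodes the nuclear protein IkBNS, also known for its part in *FOXP3* induction.

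The promoters of 4 members are shown first, since NF-kB dimers act at such sequences. They belong to the 2 members with the smallest p after injury in either subset (*NFKBIA* and *REL*) and the 2 with the smallest p between the uninjured subsets (*BCL3* and *NFKBID*). Each is the 250 bases before a RefSeq transcription start on build GRCm38.p6, read 5′ to 3′ on the strand of the gene, and capitals mark matches to the kappaB consensus, the motif NF-kB dimers bind, searched on both strands with overlaps allowed. *NFKBIA* lies on the minus strand at chr12:55492648-55492897, *REL* on the minus strand at chr11:23770970-23771219, *BCL3* on the minus strand at chr7:19822756-19823005, and *NFKBID* on the plus strand at chr7:30422156-30422405, the one of its 3 starts with a match.
NFKBIA: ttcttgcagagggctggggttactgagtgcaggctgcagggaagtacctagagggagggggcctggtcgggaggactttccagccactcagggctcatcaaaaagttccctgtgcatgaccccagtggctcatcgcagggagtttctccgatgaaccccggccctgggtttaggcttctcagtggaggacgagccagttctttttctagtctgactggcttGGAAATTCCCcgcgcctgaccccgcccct
REL: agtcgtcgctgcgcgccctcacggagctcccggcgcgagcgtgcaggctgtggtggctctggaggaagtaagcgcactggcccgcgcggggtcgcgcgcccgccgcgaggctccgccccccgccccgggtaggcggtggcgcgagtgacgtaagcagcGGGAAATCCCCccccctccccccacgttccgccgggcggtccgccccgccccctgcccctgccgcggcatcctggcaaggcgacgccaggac
NFKBID: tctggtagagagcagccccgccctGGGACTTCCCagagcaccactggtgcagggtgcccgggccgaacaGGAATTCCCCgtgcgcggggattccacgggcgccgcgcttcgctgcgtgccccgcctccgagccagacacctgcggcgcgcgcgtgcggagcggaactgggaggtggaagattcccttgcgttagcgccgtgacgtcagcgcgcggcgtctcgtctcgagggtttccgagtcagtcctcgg
BCL3: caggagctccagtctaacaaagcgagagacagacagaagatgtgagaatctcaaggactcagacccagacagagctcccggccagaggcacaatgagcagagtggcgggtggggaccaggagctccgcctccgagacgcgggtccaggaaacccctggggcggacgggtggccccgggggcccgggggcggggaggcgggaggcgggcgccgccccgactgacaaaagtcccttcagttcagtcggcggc
The match of *NFKBIA* ended 19 bases before the start. The first match of *REL* ended 82 bases before it, where overlapping matches on both strands form a single, longer run. *NFKBID* held 2 separate matches, 216 and 171 bases before that start, and *BCL3* held none. Of the 10 members, 8 had a promoter in the RefSeq table and 6 of these held a match at 1 start or more (*NFKB2*, *REL*, *NFKBIA*, *NFKBID*, *NFKBIE* and *TNFAIP3*), whereas *RELA* and *BCL3* held none. By comparison, 10.7% of the 9123 tested genes with a promoter held a match at any start, and 7.25% of all 32851 promoters of this length. A match is a description of these letters and no evidence of binding in these cells.

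The members differed by up to 105-fold in level per length of transcript, and the order was led by an inhibitor. CPM (the reads of a gene scaled to a common library size, with TMM factors) were divided by the length of the union of each gene's exons in kb, giving RPKM. *NFKBIA*, which encodes IkBa, the inhibitor that is degraded and remade in each round of activation, was the highest in all 4 groups, at 374 ± 25.9 RPKM in uninjured CD44high and 260 ± 15.7 in uninjured CD44low Tregs (SD, n = 4 and 5). *RELA* was the second in every group, with means of 86.3 to 104 RPKM, and *NFKBID* the third, with means of 50.6 to 83.3 RPKM. *NFKB1* and *REL* were the lowest, with means of 5.25 to 7.996 RPKM and 3.60 to 6.72 RPKM. Between them, *BCL3*, *NFKB2*, *RELB*, *NFKBIE* and *TNFAIP3* lay at means of 19.1 to 60.1 RPKM, and neighbours in this middle range overlapped in several groups. Among the 5 subunit genes, *RELA* made up 47.8 to 58.6% of the summed RPKM of any library, and *REL* 1.16 to 4.34%. The length used matters for *NFKB1*, whose exon union is 12061 bases against 4149 bases for its longest transcript. With the longest transcript its means were 15.3 to 23.2 RPKM, and *REL* and *NFKB1* stayed the lowest of the 10 in all groups.

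**Figure D1:**
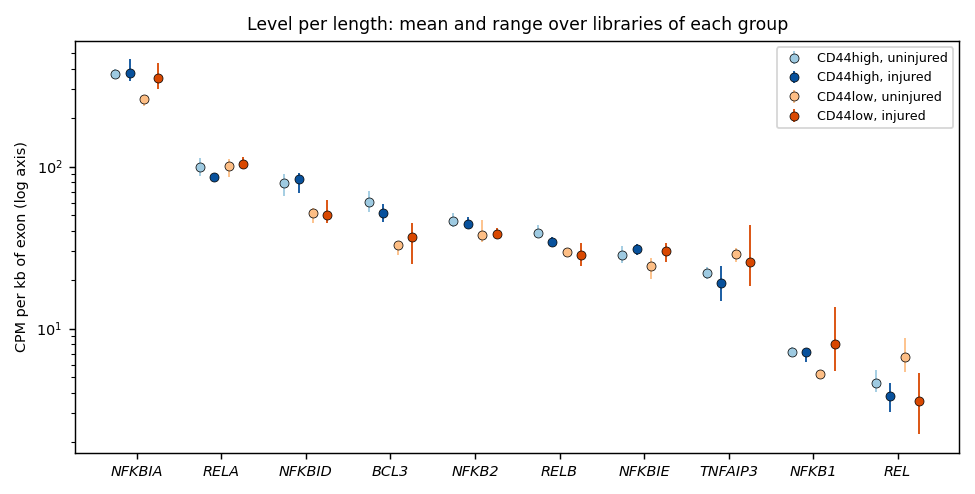
Level of each member per length (CPM per kb of exon union, log axis), with a point for the mean and a line from the lowest to the highest library of each group. *NFKBIA* is the highest and *REL* and *NFKB1* the lowest in all 4 groups.

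In uninjured mice, CD44high Tregs had more *BCL3*, *NFKBID*, *NFKBIA*, *RELB*, *NFKB1* and *NFKB2* mRNA than CD44low Tregs and less *REL*. With a call at an adjusted p under 0.05 (edgeR's quasi-likelihood test, all 11464 genes), 6 of the 10 members were higher and 1 was lower. Of all genes tested, 24.7% were called higher and 21.3% lower in this comparison. The median log2 fold change of the members was 0.33 against 0.01 for all genes, while the median size of the change was 0.43 for the members and 0.44 for all genes. The values of 5 members were higher and of 1 lower in every CD44high than in every CD44low library, against 40.7% of all genes that did not overlap in either direction.

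*BCL3*, an atypical IkB protein that works in the nucleus with p50 and p52 dimers, differed most. Its level was 131, 175, 155 and 134 CPM in the 4 uninjured CD44high libraries and 82.7, 82.9, 83.3, 84.2 and 70.7 CPM in the 5 uninjured CD44low libraries. The groups did not overlap, and the log2 fold change was 0.88 ± 0.15 (SE, adjusted p = 3.11e-05), or 1.84-fold. *NFKBID* was at 211, 185, 192 and 155 CPM against 128, 130, 117, 130 and 105 CPM. All CD44high libraries were again above all CD44low libraries, by a log2 fold change of 0.61 ± 0.12 (adjusted p = 0.000179). *NFKBIA* was at 646, 630, 567 and 567 CPM against 428, 383, 443, 436 and 402 CPM. Its log2 fold change was 0.52 ± 0.11 (adjusted p = 0.000343), with no overlap.

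Among the subunits, *RELB*, which pairs with p52 in the alternative pathway, was at 152, 170, 143 and 140 CPM in uninjured CD44high libraries and 116, 118, 108, 117 and 120 CPM in uninjured CD44low libraries. It differed by a log2 fold change of 0.38 ± 0.11 (adjusted p = 0.00542) without overlap. *NFKB1* was at 84.9, 89.0, 92.6 and 82.2 CPM against 61.0, 67.0, 62.5, 62.8 and 63.5 CPM, a log2 fold change of 0.46 ± 0.18 (adjusted p = 0.0430). The 2 groups were tight and apart, but the standard error, which draws on the wide spread of *NFKB1* in the injured CD44low libraries, put this call near the threshold. Leaving out any 1 of these 9 libraries gave an adjusted p of 0.0564 to 0.0937, while fitting the 2 uninjured groups alone gave 0.000596. *NFKB2* was at 238, 198, 216 and 194 CPM against 215, 156, 164, 160 and 179 CPM, with overlap. Its log2 fold change was 0.27 ± 0.10 (adjusted p = 0.0311). Without CD44high library 2 it was 0.20 (adjusted p = 0.153), and the call was also lost without CD44high library 4 or any of the CD44low libraries 2, 3, 4 and 5 (adjusted p = 0.0503 to 0.0928), and without the filter on low counts (adjusted p = 0.0587).

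*REL* ran the other way. It was at 35.5, 41.7, 30.4 and 31.2 CPM in uninjured CD44high libraries and 65.8, 44.1, 49.0, 40.2 and 51.7 CPM in uninjured CD44low libraries, so that 1 pair of libraries overlapped. The log2 fold change was -0.53 ± 0.19 (adjusted p = 0.0279). The call was lost without CD44high library 4 or 5 or CD44low library 1 (adjusted p = 0.0747 to 0.0869), and when each library's trend on transcript length was taken out (log2 fold change -0.12, adjusted p = 0.525). *TNFAIP3*, whose product A20 switches off signaling upstream of IKK, was at 174, 146, 159 and 159 CPM against 187, 209, 228, 227 and 197 CPM. Every CD44high library was below every CD44low library, yet the log2 fold change of -0.39 ± 0.20 did not pass the test (adjusted p = 0.109). *TNFAIP3* was called lower in 6 of 29 alternative fits, among them that of the uninjured groups alone and that without injured CD44low library 5_2. Its log2 fold change ran from -0.48 to -0.07 over the 29 fits. *NFKBIE*, a further cytoplasmic IkB gene, had a log2 fold change of 0.23 ± 0.12 (adjusted p = 0.111), with 77.2 to 98.0 CPM against 62.1 to 83.2 CPM. *RELA* was at 268 to 348 CPM against 265 to 345 CPM, a log2 fold change of -0.03 ± 0.09 (adjusted p = 0.827).

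**Figure D2:**
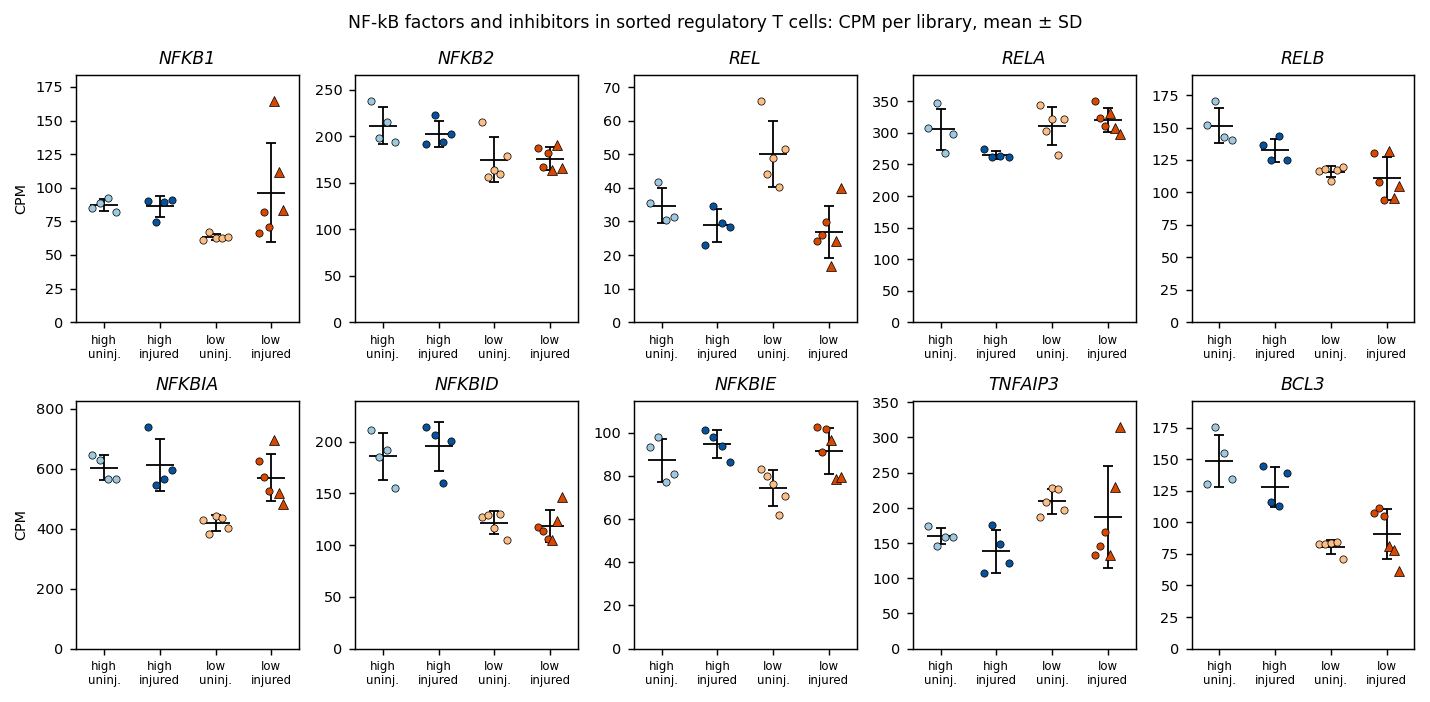
CPM of each member in every library (points; triangles are the injured CD44low libraries with a second number), with the mean and SD of each group as a bar and whiskers; each panel has its own axis from 0. *BCL3* and *NFKBID* are higher in CD44high than in CD44low libraries, and in uninjured CD44low libraries *NFKBIA* is lower and *REL* higher than in injured CD44low libraries.

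After injury the same contrast of subsets held 3 calls: *NFKBID* and *BCL3* were higher in CD44high Tregs and *RELA* was lower. Of all genes, 20.1% were called higher and 17.2% lower, and the values of 3 members were higher and of 1 lower without overlap, against 24.8% of all genes. *NFKBID* was at 214, 206, 160 and 201 CPM in injured CD44high libraries and 105 to 147 CPM (median 116) in the 6 injured CD44low libraries. The log2 fold change was 0.72 ± 0.11 (adjusted p = 1.71e-05), the largest of the 10 members here, and it kept its call in all 29 alternative fits. *BCL3* was at 145, 116, 113 and 139 CPM against 61.7 to 111 CPM (median 92.9), a log2 fold change of 0.50 ± 0.14 (adjusted p = 0.00669). The groups were only just apart, since libraries 1, 2 and 5 of the CD44low group lay at 105 to 111 CPM. With these 3 alone as the CD44low group, the log2 fold change was 0.25 and the call was lost (adjusted p = 0.121).

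*RELA*, the main activating subunit of the classical pathway, was at 275, 261, 263 and 262 CPM in injured CD44high libraries and 298 to 350 CPM (median 317) in injured CD44low libraries. The groups did not overlap, and the log2 fold change was -0.27 ± 0.09 (adjusted p = 0.0176). The call was lost with libraries 1_2, 4_2 and 5_2 alone as the CD44low group (adjusted p = 0.0527). *NFKB2* also did not overlap, with 191 to 222 CPM against 164 to 190 CPM, but its log2 fold change of 0.20 ± 0.10 was not called (adjusted p = 0.106). *RELB* had a log2 fold change of 0.26 ± 0.10 (adjusted p = 0.0529), at 125 to 143 CPM against 94.1 to 132 CPM. *TNFAIP3* had one of -0.43 ± 0.19 (adjusted p = 0.0774), at 107 to 176 CPM against 133 to 314 CPM. It was called lower in 8 of 29 alternative fits, among them that with libraries 1_2, 4_2 and 5_2 alone as the CD44low group. Its log2 fold change ran from -0.73 to -0.10 over the 29 fits. *NFKB1*, *REL*, *NFKBIA* and *NFKBIE* had log2 fold changes of -0.16 ± 0.18, 0.10 ± 0.19, 0.10 ± 0.10 and 0.05 ± 0.11, none of them called. *NFKB1* depended on the set of injured CD44low libraries: it was called lower in CD44high Tregs against libraries 1_2, 4_2 and 5_2 alone (log2 fold change -0.50, adjusted p = 0.0161) and was at 0.24 (adjusted p = 0.103) against libraries 1, 2 and 5 alone.

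Injury itself was read within each subset. In CD44low Tregs, *REL* fell and *NFKBIA* and *NFKB1* rose at day 7, so 3 of 10 members passed the test. Of all genes, 4.24% were called higher and 3.36% lower in this comparison, and 4.68% did not overlap; of the members, 1 was higher and 1 lower without overlap. The members' median log2 fold change was 0.03 against 0.01 for all genes, and the median size was 0.17 against 0.22. The uninjured CD44low libraries are the reference here and also the lower arm of the contrast of uninjured subsets above, so calls for the same gene in both (*REL*, *NFKBIA* and *NFKB1*) share those 5 libraries.

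*REL* was at 65.8, 44.1, 49.0, 40.2 and 51.7 CPM in the uninjured CD44low libraries. In the injured CD44low libraries it was at 24.3, 26.0 and 29.8 CPM (1, 2 and 5) and at 16.7, 24.3 and 40.1 CPM (1_2, 4_2 and 5_2). All injured libraries were below all uninjured ones, although library 5_2 came within 0.180 CPM of the lowest uninjured library. The log2 fold change was -0.90 ± 0.17 (adjusted p = 0.00371), or 1.86-fold lower, and 93 of the 11464 genes had a smaller p. *NFKBIA* was at 428, 383, 443, 436 and 402 CPM in the uninjured CD44low libraries. It was at 627, 573 and 526 CPM in injured libraries 1, 2 and 5 and at 697, 518 and 482 CPM in libraries 1_2, 4_2 and 5_2. Every injured library was above every uninjured one, and the log2 fold change was 0.45 ± 0.10 (adjusted p = 0.00870), or 1.36-fold. Both calls were kept in all 28 alternative fits, at log2 fold changes of -1.02 to -0.63 for *REL* and 0.30 to 0.51 for *NFKBIA*, with the lowest size in each case when the trend on transcript length was taken out. The promoters of *REL* and *NFKBIA* were printed above because of their small p. Whether a kappaB match goes with a change after injury was not tested.

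*NFKB1* was at 61.0 to 67.0 CPM in uninjured CD44low libraries. Injured libraries 1, 2 and 5 were at 66.1, 82.1 and 70.6 CPM, and libraries 1_2, 4_2 and 5_2 at 164, 112 and 83.4 CPM. The groups overlapped at library 1, and the log2 fold change was 0.60 ± 0.17 (adjusted p = 0.0305). Library 1_2 carried much of this difference. Without it the log2 fold change was 0.39 (adjusted p = 0.0571), and with libraries 1, 2 and 5 alone it was 0.21 (adjusted p = 0.190). The call was also lost without uninjured CD44low library 1 (adjusted p = 0.0548) and in a fit of the 2 CD44low groups alone (adjusted p = 0.0758). *NFKBIE* was at 62.1 to 83.2 CPM in uninjured and 78.4 to 103 CPM in injured libraries, a log2 fold change of 0.30 ± 0.11 (adjusted p = 0.0770). DESeq2 called it higher (adjusted p = 0.0335). The remaining 6 members had log2 fold changes of -0.17 to 0.17, with none called.

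**Figure D3:**
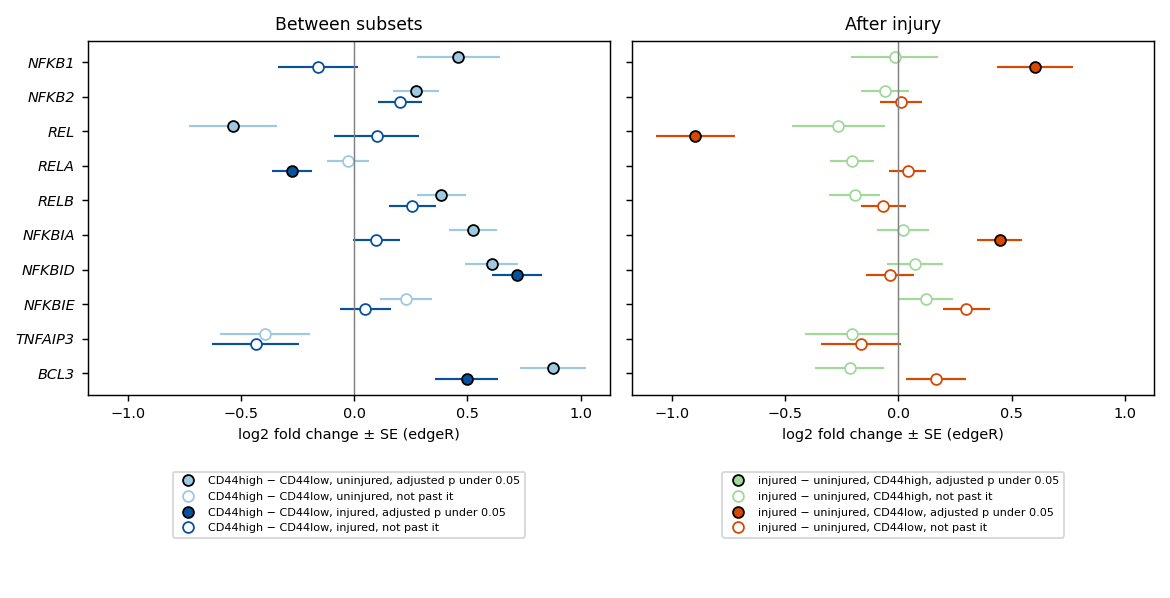
Log2 fold change ± SE of each member between CD44high and CD44low Tregs (left) and between injured and uninjured mice (right); filled points passed an adjusted p under 0.05. After injury the filled points are *REL*, *NFKBIA* and *NFKB1* in CD44low Tregs, and no point of CD44high Tregs is filled.

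In CD44high Tregs no member was called after injury by edgeR or DESeq2. Of all genes, 1.06% were called higher and 1.33% lower. *RELA* alone reached an unadjusted p under 0.05, at rank 1601 by p among the 11464 genes, so at least 1601 genes passed this looser threshold. It was at 308, 348, 268 and 299 CPM in uninjured and 275, 261, 263 and 262 CPM in injured libraries, a log2 fold change of -0.21 ± 0.10 (adjusted p = 0.312). *REL* was at 30.4 to 41.7 CPM in uninjured and 22.8 to 34.5 CPM in injured libraries, a log2 fold change of -0.27 ± 0.20 (adjusted p = 0.592). *NFKBIA* was at 567 to 646 CPM and 545 to 738 CPM, a log2 fold change of 0.02 ± 0.11. *NFKB1* was at 82.2 to 92.6 CPM and 74.7 to 90.6 CPM, a log2 fold change of -0.02 ± 0.19. No member's groups were apart, against 13.3% of all genes.

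The injury effect was also compared between the subsets directly, as an interaction in the same fit. By edgeR and by DESeq2 0 of 10 members were called, and 0.645% of all genes were called by edgeR. At an unadjusted p under 0.05 there were 3 members (*NFKBIA*, *NFKB1* and *REL*), at ranks 433, 732 and 827 by p among the 11464 genes. At least 827 genes therefore passed this looser threshold, and the exact share of all genes was not counted. *NFKBIA* had an interaction of -0.43 ± 0.15 on the log2 scale (adjusted p = 0.238), *NFKB1* of -0.62 ± 0.25 (adjusted p = 0.354) and *REL* of 0.63 ± 0.27 (adjusted p = 0.377), where a negative value is a smaller rise in CD44high Tregs. With all libraries, these data therefore do not show that the response of any member differed between the subsets. With libraries 1, 2 and 5 alone as injured CD44low, *BCL3* was called in the interaction (-0.63, adjusted p = 0.0342), and with libraries 1_2, 4_2 and 5_2 alone *NFKB1* was (-0.95, adjusted p = 0.0274).

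The values of some members differed between the injured CD44low libraries with and without a second number. These sets, of 3 libraries each, were described without a test. *BCL3* was at 107, 111 and 105 CPM in libraries 1, 2 and 5 and at 81.0, 77.9 and 61.7 CPM in libraries 1_2, 4_2 and 5_2. *TNFAIP3* was at 134, 145 and 166 CPM in the first set and at 133, 229 and 314 CPM in the second. For *BCL3* and *NFKB1* the 2 sets did not overlap, in opposite directions. *NFKB1* was only just apart, at 82.1 CPM in library 2 against 83.4 CPM in library 5_2. The share of all genes without overlap between these sets was not counted. With libraries 1, 2 and 5 alone, 5 members were called after injury in CD44low Tregs: *REL*, *NFKBIA*, *BCL3* (log2 fold change 0.42), *NFKBIE* (0.40) and *TNFAIP3* (-0.50). With libraries 1_2, 4_2 and 5_2 alone, 3 were called: *REL* (-0.86), *NFKBIA* (0.46) and *NFKB1* (0.94). *REL* and *NFKBIA* were the 2 members called with either set. The share of all genes called in these fits was not counted, so the counts of 5 and 3 members were not set against it.

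**Figure D4:**
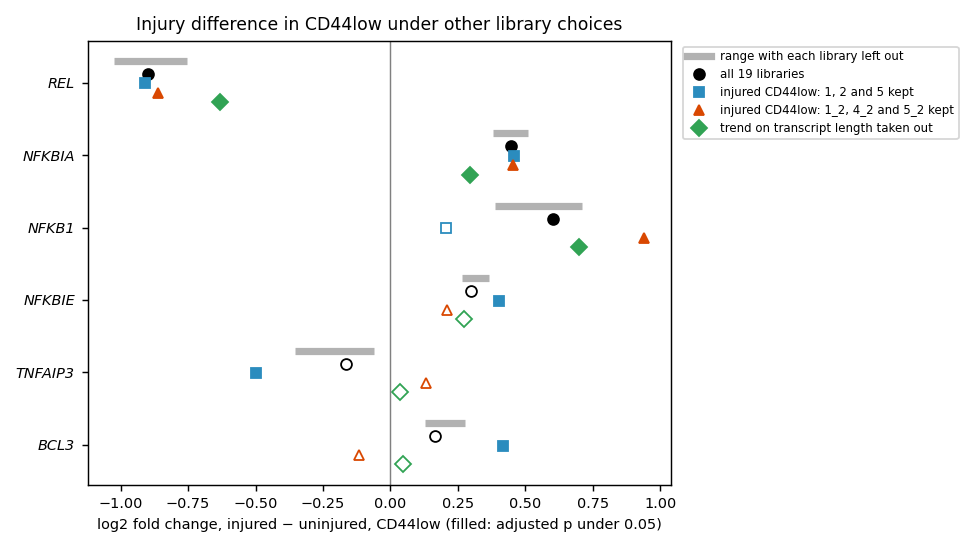
Log2 fold change between injured and uninjured CD44low Tregs for 6 members with all libraries, with either set of injured CD44low libraries, and with the trend on transcript length taken out; grey bars give the range with each library left out, and filled symbols passed an adjusted p under 0.05. *REL* and *NFKBIA* keep their side of 0 and their call throughout, whereas *TNFAIP3* and *BCL3* lie on both sides of 0.

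Library differences in transcript length moved with these genes. Across the 11352 tested genes with a known length, the slope of a library's log2 CPM deviation on each doubling of the longest transcript was 0.0741 to 0.192 in uninjured CD44low libraries and -0.181 to 0.148 in injured CD44low libraries. It was -0.0553 to -0.0150 in uninjured and -0.272 to 0.0135 in injured CD44high libraries. Within groups, over the 19 libraries, this slope had a Pearson correlation of 0.86 with *REL* (7466 bases), 0.75 with *TNFAIP3* (6199 bases) and -0.81 with *NFKBIA* (1578 bases). With the trend taken out, *REL* and *NFKBIA* after injury in CD44low Tregs had log2 fold changes of -0.63 (adjusted p = 0.00528) and 0.30 (adjusted p = 0.0146). The 3 calls after injury in CD44low Tregs and the 3 between injured subsets were kept.

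Members also varied together from library to library within groups, as a description over 19 libraries that share these trends. The highest Pearson correlation of log2 CPM after subtracting group means was 0.78 between *RELA* and *NFKBIE*, followed by 0.62 between *RELB* and *NFKBIA*. The lowest were -0.74 between *TNFAIP3* and *BCL3* and -0.71 between *NFKBIA* and *TNFAIP3*, and *REL* and *NFKBIA* had -0.59. The genes whose pattern was most like a member's were, among all genes tested, *ATF7IP* for *REL* (0.94), *GIMAP9* for *NFKBIA* (0.95), *AHCTF1* for *TNFAIP3* (0.94) and *CMTM7* for *NFKB1* (0.92). For the other members the closest were *DERL1* for *RELA* (0.85), *MTPAP* for *RELB* (0.82), *BOC* for *NFKB2* (0.77), *SLC26A1* for *NFKBID* (0.79), *LMAN2* for *NFKBIE* (0.84) and *GABPB1* for *BCL3* (0.86).

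The other genes of the pathway were read from lists by role. For comparison with all lists below, 24.7% of all genes were called higher and 21.3% lower in uninjured CD44high than CD44low Tregs. In injured mice these shares were 20.1% and 17.2%. After injury they were 1.06% and 1.33% in CD44high and 4.24% and 3.36% in CD44low Tregs. Of 16 tested receptor genes that signal to NF-kB, 11 were higher and 0 lower in uninjured CD44high than in CD44low Tregs, and 10 and 0 in injured mice. The largest uninjured differences were *IL1RL1*, the IL-33 receptor (250 against 16.3 CPM, log2 fold change 3.94 ± 0.20), *TNFRSF8* (CD30, 2.85 ± 0.36) and *TNFRSF1B* (TNFR2, 1562 against 394 CPM, 1.99 ± 0.13). After injury *TNFRSF9* (4-1BB) rose in both subsets, from 516 to 786 CPM in CD44high and from 222 to 310 CPM in CD44low Tregs. In CD44low Tregs *TNFRSF18* (GITR) and *TNFRSF4* (OX40) rose as well, with log2 fold changes of 0.42 ± 0.10 and 0.41 ± 0.10, so 1 and 3 receptor genes were higher and 0 lower.

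Among 17 genes of the IKK kinases and of kinases and adaptors that act on them, 1 was higher and 6 were lower in CD44high Tregs, in uninjured and in injured mice alike. The shares of all genes were 24.7% higher and 21.3% lower in uninjured mice, and 20.1% and 17.2% in injured mice. *MALT1*, the paracaspase, was the higher one (143 against 84.6 CPM when uninjured). *MAP3K14*, which encodes the kinase NIK of the alternative pathway, was at 15.2 against 52.8 CPM (log2 fold change -1.80 ± 0.24), and *PRKCQ*, the T cell receptor kinase PKC-theta, at 326 against 621 CPM (-0.93 ± 0.09). After injury 0 of these genes were called in CD44high Tregs, and in CD44low Tregs *MALT1* alone was, at 59.9 against 84.6 CPM (log2 fold change -0.50 ± 0.13). Of 11 TRAF and cIAP adaptor genes, 2 were higher and 4 lower in uninjured CD44high Tregs, among them *TRAF6* (41.7 against 123 CPM, log2 fold change -1.56 ± 0.21) and *TRADD* (0.71 ± 0.16). In injured mice 1 was higher and 4 were lower, and 0 changed with injury in either subset.

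Of 16 other IkB genes and negative regulators, 6 were higher and 2 lower in uninjured CD44high Tregs. The higher ones included *TNIP3* (3.61 against 0.668 CPM, the largest change) and *N4BP1*, an inhibitor of NF-kB signaling (96.0 against 30.9 CPM). The 2 lower ones were *ITCH* (87.6 against 132 CPM) and *NFKBIZ*, an atypical IkB (83.2 against 122 CPM). In injured mice 4 were higher and 1 lower. After injury in CD44low Tregs *NFKBIZ* (log2 fold change -0.74 ± 0.19) and the deubiquitinase gene *OTUD7B* (-0.73 ± 0.15) fell, and 0 rose. In CD44high Tregs 0 of the 16 were called. Of 23 tested genes reported as NF-kB targets, 11 were higher and 7 lower in uninjured CD44high Tregs, and 10 and 6 in injured mice. *EBI3*, a subunit of IL-35 and IL-27, was at 97.4 against 8.49 CPM, *ICAM1* at 338 against 118 CPM and *CCR7*, a homing receptor of resting T cells, at 294 against 964 CPM when uninjured. After injury 4 targets rose and 2 fell in CD44high Tregs, and 3 rose and 1 fell in CD44low Tregs. *CD83* rose in both, from 312 to 505 CPM and from 111 to 191 CPM, and *LTA* (lymphotoxin alpha) fell in both, from 83.5 to 47.8 CPM and from 115 to 80.7 CPM. The target list holds *IL2RA* and *FOXP3*, which are also in the Treg list below, and *BIRC3* and *TRAF1*, which are also in the adaptor list.

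Other genes moved with the groups, and their part in the members' differences was not tested. The 8 Treg and T cell genes (*FOXP3*, *CD4*, *IL2RA* and others) were present in every group, summing to 4727 to 6414 CPM per library, and 3 of them were called between uninjured subsets, 4 between injured subsets, 1 after injury in CD44high and 2 in CD44low Tregs. *CD44* was at 595 against 133 CPM in uninjured and 436 against 117 CPM in injured mice. B cell genes (12 tested) summed to 117 to 275 CPM in uninjured and 153 to 366 CPM in injured libraries, with *CD79B* called between uninjured subsets, *CD22* between injured subsets and after injury in CD44high Tregs, and none called after injury in CD44low Tregs. Myeloid genes (14 in the table, 11 tested) summed to 92.7 to 171 CPM in uninjured CD44high and 22.3 to 42.3 CPM in uninjured CD44low libraries, and to 135 to 267 CPM and 35.9 to 162 CPM after injury. In uninjured groups 2 of these genes were at 0 in every library. Between subsets 8 were higher in uninjured and 4 in injured CD44high Tregs, and 0 lower. After injury *S100A9* rose in CD44high Tregs, from 0.0417 to 3.96 CPM. In CD44low Tregs *LYZ2* rose from 22.5 to 54.2 CPM, *ITGAM* from 0.189 to 2.89 CPM and *S100A9* from 0.0675 to 2.99 CPM. *S100A9* in both subsets and *ITGAM* in CD44low Tregs were near 0 when uninjured, so a call as lower was hardly possible. CD8 T and NK cell genes (8 tested) summed to 104 to 192 CPM in uninjured and 116 to 157 CPM in injured libraries. Of these, 2 were higher between uninjured subsets, and 3 were higher and 1 lower between injured subsets. After injury 1 was lower in CD44high Tregs (*PRF1*, from 31.9 to 15.9 CPM). In CD44low Tregs 1 was higher (*KLRB1C*, from a level near 0, 0.294 CPM, to 2.32 CPM). *PRF1* was also called by edgeR in the interaction (-1.42 ± 0.29, adjusted p = 0.0155). In these bulk libraries fewer cells of a type and less RNA per cell cannot be told apart.

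Immediate early genes, which respond quickly to stimulation and to cell handling, also moved with injury. Of 16 tested, 0 rose and 4 fell in CD44high Tregs (*FOS* from 364 to 34.9 CPM) and 0 rose and 5 fell in CD44low Tregs (*JUN* from 433 to 178 CPM). Between subsets 1 was higher and 3 lower in CD44high Tregs, in uninjured and in injured mice. The list summed to 4922 to 6280 CPM in uninjured libraries and to 3166 to 3770 CPM in injured CD44high libraries. The injured CD44low libraries split by label here as well, at 3148, 3191 and 3231 CPM in libraries 1, 2 and 5 and at 4889, 4176 and 4930 CPM in libraries 1_2, 4_2 and 5_2, the highest of which reached the uninjured range. Their part in the results was not tested. Of 6 tested genes of the glucocorticoid response, 2 rose and 0 fell after injury in each subset: *TSC22D3* (GILZ), from 373 to 593 CPM in CD44high and from 578 to 1409 CPM in CD44low Tregs, and *DDIT4*, from 40.2 to 88.1 CPM and from 51.3 to 129 CPM. Between subsets 2 were higher and 1 lower in uninjured, and 2 higher and 3 lower in injured CD44high Tregs. In the CD44low libraries this list summed to 587 to 946 CPM when uninjured and 1415 to 1955 CPM when injured.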

How the data were processed

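The study sequenced bulk RNA of sorted Tregs in 19 libraries (SMART-Seq v4 amplification, Covaris shearing, Swift 2S libraries). The authors deposited 1 table of STAR gene counts, raw and not normalized, made in the VIPER workflow. The submitters' processing notes name STAR 2.5, bcl2fastq 2.18 and the builds mm9 and mm10 without saying which build was used for what, and the annotation is not given there, so the counts were tied to no coordinates. All 19 columns were used (0 were left out). The table has 24982 rows, of which 8091 hold no counts, and 24472 symbols matched GENCODE vM21 (GRCm38) when case was ignored. Lengths came from that annotation and promoters from the RefSeq table of GRCm38.p6. Whether the counting used strand is not stated, and amplified reads carry no molecular identifiers.

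Counts were tested with edgeR 4.0.16 (R 4.3.3): genes were kept by its filter with a minimum count of 10, scaled by TMM and fitted with a mean per group over all 4 groups and the quasi-likelihood test, with Benjamini-Hochberg adjustment over the 11464 genes kept and a call at 0.05. The standard error was taken as the log2 fold change divided by the square root of F. The script was tested on simulated data. Alternatives were DESeq2 1.42.0, other scaling, filter, blocks and thresholds, fits of the compared groups alone, either set of injured CD44low libraries, summing of libraries 1 with 1_2 and 5 with 5_2, each library left out, and, added after seeing the data, offsets for each library's lowess trend on transcript length. Named genes were the 10 members and, for each member, the genes with the highest within-group correlation. From the lists, genes were named from among the up to 3 called genes with the largest change per list, direction and comparison, and not all of these were named. Promoters were shown for the members with the smallest p. The members and all lists were chosen with earlier results of these data known. A gene of the list of kinases and adaptors is not reported here and was left out of its counts. Replicate numbers were checked for pairing: deviations of same-numbered libraries correlated at 0.0619, 0.00103, 0.119 and -0.00685 in uninjured and at 0.167, 0.101, 0.116 and -0.0537 in injured mice. Those of differently numbered libraries ran from -0.0798 to 0.0395 in uninjured and from -0.452 to 0.410 in injured mice. So few correlations cannot exclude pairing. The main fit did not take the numbers to pair the samples, and fits with the numbers as blocks are given below. Figures were drawn with matplotlib 3.10.9.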

Additional observations from a re-analysis of the deposited data

Results flagged for a closer look

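In each group of 4 to 6 libraries the highest and the lowest value of each member were set against the range of the group (Dixon's 95% critical values). Of 40 such groups 4 held a library that stood apart, where chance gives about 1 in 20. *NFKB1* in injured CD44high library 3 was at 74.7 CPM, below the other 3 libraries, of which the nearest was at 89.6 CPM. *RELA* in injured CD44high library 2 was at 275 CPM, above the other 3, of which the nearest was at 263 CPM. *RELB* in uninjured CD44low library 3 was at 108 CPM, with the nearest library at 116 CPM. *BCL3* in uninjured CD44low library 5 was at 70.7 CPM, with the nearest library at 82.7 CPM. In none of these 4 cases did leaving out the named library change a call of that member. With all libraries, no member was called by the interaction test of the injury effect between the subsets, while *BCL3* (-0.63, adjusted p = 0.0342) and *NFKB1* (-0.95, adjusted p = 0.0274) were each called with one set of 3 injured CD44low libraries left out.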

How the results depend on the processing

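No log2 fold change that passed the test turned its sign in any alternative fit (0 of 53 sign changes, which were all of values not called with all libraries). Of 1420 member values in the alternative fits, 1310 kept direction and side of the threshold, 29 lost a call and 28 gained one. The causes were not tested unless the setting itself names one. The share of all genes called was not counted in these fits, so the counts of members in this section stand without it. At the study's volcano threshold (unadjusted p under 1e-06 and 2-fold) 0 members were called in any comparison, since no member reached a 2-fold change. With libraries 1_2, 4_2 and 5_2 left out, 5 members were called after injury in CD44low Tregs and 1 in the interaction (*BCL3*, -0.63, adjusted p = 0.0342), and the signs turned for *NFKB1* (0.24) and *NFKBIE* (-0.0517) between injured subsets and for *TNFAIP3* in the interaction (0.29). With libraries 1, 2 and 5 of injured CD44low left out, *NFKB1* and *TNFAIP3* gained a call between injured subsets and *RELA* lost its call. That fit called 1 member in the interaction (*NFKB1*, -0.95, adjusted p = 0.0274). After injury in CD44low the signs turned in it for *NFKBID* (0.0623), *TNFAIP3* (0.13) and *BCL3* (-0.11). With libraries 1, 2 and 5 alone, *TNFAIP3* (-0.50) and *BCL3* (0.42) were called there. With libraries 1 and 1_2 and 5 and 5_2 summed, 5 were called between injured subsets (*RELB* and *TNFAIP3* besides the 3). With the trend on transcript length taken out, signs turned for *NFKBIA* (-0.00688) and *NFKBIE* (-0.00913) between injured subsets, *NFKB1* (0.0340) and *NFKBIA* (-0.0623) after injury in CD44high, and *RELA* (-0.0114) and *TNFAIP3* (0.0338) after injury in CD44low. Without the filter, and with only the compared groups fitted, *NFKB1* after injury in CD44high was at 0.00197 and 0.0117.

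With the replicate block on the leading number, 5 members were called between injured subsets (*RELB*, 0.33, and *TNFAIP3*, -0.58, were added), *TNFAIP3* was called between uninjured subsets (-0.48), *NFKB1* after injury in CD44low was not (0.56, adjusted p = 0.0856), and signs turned for *RELA* between uninjured subsets (0.00029) and *NFKB2* after injury in CD44low (-0.00297). With the replicate block within each injury group, signs turned for *RELA* between uninjured subsets (0.00969), *NFKB1* (0.0378) and *REL* (-0.0947) between injured subsets and *RELB* in the interaction (0.0245), and 2 calls were lost: *NFKB1* between uninjured (0.45, adjusted p = 0.0822) and *RELA* between injured subsets (-0.23, adjusted p = 0.0776). That fit added *TNFAIP3* between uninjured (-0.43) and injured subsets (-0.71) and *RELB* between injured subsets (0.41). The numbers were not taken to pair the samples.

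With each library left out in turn, 4 to 8 members were called between uninjured subsets (4 without uninjured CD44high library 4, where *NFKB1*, *NFKB2* and *REL* were lost) and 3 to 5 between injured subsets (5 without injured CD44low library 1 or 1_2). The log2 fold changes that crossed 0 ranged between injured subsets from -0.27 to 0.0579 for *NFKB1*, -0.0278 to 0.16 for *NFKBIA*, -0.00533 to 0.0945 for *NFKBIE* and -0.00342 to 0.24 for *REL*, and between uninjured subsets from -0.11 to 0.0310 for *RELA*. After injury in CD44high they ranged from -0.0399 to 0.0487 for *NFKB1*, -0.11 to 0.0148 for *NFKB2* and -0.0726 to 0.0729 for *NFKBIA*, after injury in CD44low from -0.00319 to 0.12 for *NFKB2* and -0.0865 to 0.0167 for *NFKBID*, and in the interaction from -0.18 to 0.16 for *TNFAIP3*. The fewest reads were those of *REL*, 97 to 421 per library. With the longest transcript in place of the exon union, 26 of 40 group means per length moved by over 1 SD.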
